A study of Mus musculus with 6 samples.

Results

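Hepatocytes are not alike along the liver lobule. Those beside the central vein and those beside the portal tract run different metabolic programmes, a pattern called zonation. The 10 genes described here are established marks of that pattern, 5 of the pericentral zone (Cyp2e1, Cyp1a2, Glul, Oat and Slc1a2) and 5 of the periportal zone (Cyp2f2, Sds, Gls2, Pck1 and G6pc). They were taken by name as known marks of the zones, out of 23394 genes in the tables. The choice was made with earlier results of these data known. All 10 were found by symbol, and all 10 passed the filter on low counts, which left 15619 genes to test.

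Pericentral hepatocytes receive Wnt signals from the endothelium of the central vein, which keep up glutamine synthesis and xenobiotic metabolism. Periportal hepatocytes meet blood that is rich in oxygen, amino acids and glucagon, and carry out gluconeogenesis, ureagenesis and amino acid breakdown. Carbon tetrachloride (CCl4) is turned into a toxic radical by the pericentral enzyme CYP2E1, so its injury falls on the cells around the central vein.

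The samples were macrophages by their labels. Livers of male C57BL/6 mice aged 3 months, all given CCl4 into the peritoneum, were digested, and cells carrying F4/80, a surface antigen of mouse macrophages, were drawn off with magnetic beads. Polyadenylated RNA was sequenced from 3 libraries of wild-type (WT) and 3 of knockout (KO) mice, and genotype alone differed between their labels. The labels name neither the gene that was knocked out nor the cell type in which it was lost, the CCl4 dose is not in them, and no group without CCl4 was analysed here. They do not say that each library came from its own animal, so a p-value here measures the spread between these libraries, which may be technical.

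Library size ran from 10790842 to 22157238 reads with 1 transcript counted per gene. Levels are given as normalised counts, which are reads divided by 1 factor per library. Changes are KO minus WT on the scale of log2(normalised count + 1), tested with limma over all 15619 genes, and a gene was called at a Benjamini-Hochberg adjusted p under 0.05. Adgre1, which encodes F4/80, was read at 4463 to 7644 in WT and 4441 to 6673 in KO libraries. Of 17 macrophage and Kupffer cell markers, all were read and 13 had a change below 0, as did 7151 of the 15619 genes tested. Lyz2, the macrophage lysozyme, fell from 63752 or more in each WT library to 2023 or less in each KO library (log2 change -6.20, limma adjusted p = 0.00151). No other marker of that list passed but Cx3cr1, which was also lower in KO (log2 change -1.33, limma adjusted p = 0.0433).

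Hepatocyte RNA was present in all 6 libraries. The 24 lobule-wide hepatocyte genes, mostly of plasma proteins that all hepatocytes make, were all read, and their summed level ran from 24939 to 89333 normalised counts in WT and from 75599 to 173955 in KO libraries. The sums overlapped between the groups. In bulk RNA, more hepatocytes among the selected cells and more RNA of these genes per cell cannot be told apart.

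All 10 zonation genes had a higher mean in the KO libraries, and 4 of them were called. Cyp2e1 rose in the pericentral set, and Sds, Gls2 and Pck1 rose in the periportal set. Of all genes tested, 2.44% were called in either direction, 326 as higher and 55 as lower in KO, and those higher made up 2.09%. The KO values lay wholly above the WT values for 9 of the 10 genes, as they did for 13.7% of all genes tested. The median log2 change was 1.64 over the 10 genes and 0.05 over all genes tested, of which 54.2% were above 0. edgeR's quasi-likelihood test on the recovered reads also called 4 of the 10, where it called 1.81% of all genes. The calls rested most on KO replicate 3. With it left out none of the 10 passed and 8 genes passed in all. Leaving out any 1 of WT replicate 1, WT replicate 2 and KO replicate 2 left 2 of the 10, and leaving out KO replicate 1 gave 5.

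**Figure D1:**
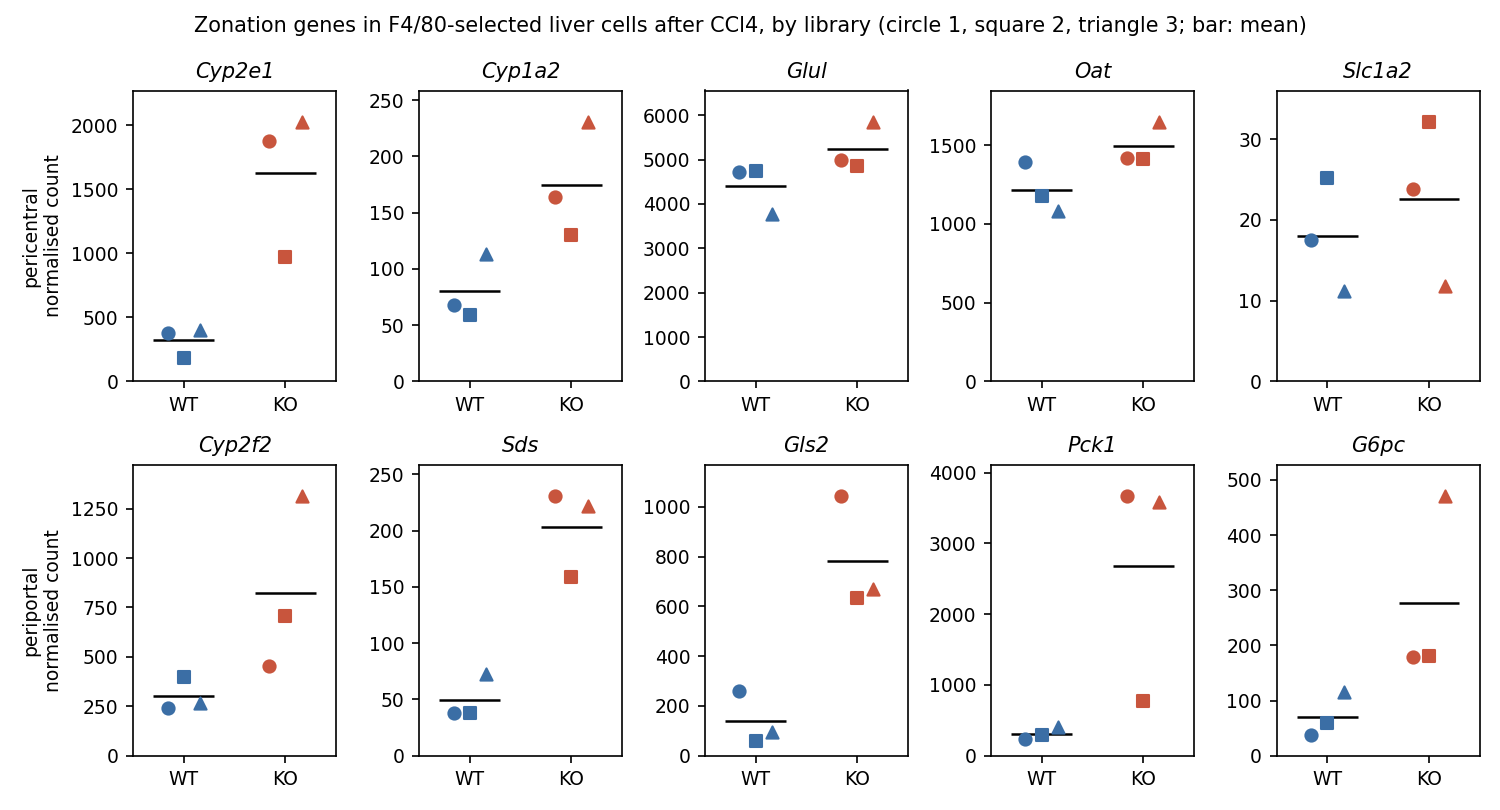
Normalised counts of the 10 zonation genes in each library, pericentral genes in the upper row and periportal genes in the lower row, with WT in blue, KO in red, 1 symbol per replicate and a bar at the group mean. The KO points lie above the WT points in every panel but that of Slc1a2.

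The regulatory sequence before 3 of these genes is shown because they differ most in their response: Cyp2e1 and Pck1 had the largest change of their zones, and Glul had the smallest of all 10. The sequences are RefSeq's, build GRCm38.p6, and 8 of the 10 genes are in the RefSeq promoter table (Sds and Gls2 are not). Each run ends before the first annotated base of the gene. Cyp2e1 is shown at chr7:140763569-140763738, Pck1 at chr2:173152823-173153047 and Glul at chr1:153899679-153899928, all on the plus strand and read 5′ to 3′. Capitals mark matches on either strand to the motifs named after the sequences.
Cyp2e1: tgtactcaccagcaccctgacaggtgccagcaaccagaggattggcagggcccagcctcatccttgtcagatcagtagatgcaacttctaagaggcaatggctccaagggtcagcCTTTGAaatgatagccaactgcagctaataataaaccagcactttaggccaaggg
Pck1: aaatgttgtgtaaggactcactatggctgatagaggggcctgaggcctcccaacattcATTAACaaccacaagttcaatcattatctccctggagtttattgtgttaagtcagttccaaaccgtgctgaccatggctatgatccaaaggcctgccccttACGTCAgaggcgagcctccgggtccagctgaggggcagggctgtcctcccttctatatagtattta
Glul: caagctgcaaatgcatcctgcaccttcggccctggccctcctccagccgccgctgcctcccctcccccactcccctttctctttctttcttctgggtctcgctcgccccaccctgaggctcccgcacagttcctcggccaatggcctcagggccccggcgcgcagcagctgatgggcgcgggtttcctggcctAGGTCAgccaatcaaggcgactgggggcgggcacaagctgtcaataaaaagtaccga

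The motifs were searched on both strands in windows of 250 bases before to 50 after the RefSeq start. CTTTGA, the core that TCF/LEF factors of the Wnt pathway bind, lies 135 bases before the start of Cyp2e1 and is held by 16% of 32544 windows of that length. Cyp1a2, Slc1a2 and the periportal G6pc hold it too, so among the 8 genes it was not limited to the pericentral set. ACGTCA, a part of the cAMP response element through which glucagon acts, lies 91 bases before the start of Pck1, is held by 7.55% of windows and was found in no other of the 8. AGGTCA, a core bound by nuclear receptors and held by 16.2%, lies 57 bases before the start of Glul. Slc1a2, Cyp2f2 and G6pc hold it too. GTTAAT, bound by the hepatocyte factor HNF1 and held by 7.13%, was found in Pck1 and G6pc. TATAAA, the TATA box held by 13.6%, was found in Cyp2e1, Cyp1a2 and G6pc, for Cyp2e1 beyond the run shown. The RefSeq start of Slc1a2 lies 47779 bases inside the annotated gene. No motif was found in Oat, and no matches overlapped. A match says only that the letters are there.

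Among the pericentral genes Cyp2e1 was the only one called. Cyp2e1 (ENSMUSG00000025479, chromosome 7, 140763739 to 140774987 on the plus strand in GRCm38) encodes the P450 that activates CCl4. It held 381, 181 and 400 normalised counts in WT replicates 1, 2 and 3 and 1874, 967 and 2027 in KO replicates 1, 2 and 3. Every KO library was far above the highest WT library, and replicate 2 was the lowest of both groups. The log2 change was 2.35 (SE 0.36, 95% confidence interval 1.53 to 3.17, limma adjusted p = 0.0205), a 5.10-fold higher level. Leaving out 1 library at a time, limma kept this call in 5 of 6 fits and lost it without KO replicate 3 (adjusted p = 0.0847).

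Cyp1a2 (ENSMUSG00000032310, chromosome 9, 57676937 to 57683703, minus strand) encodes the P450 that clears caffeine and is under the aryl hydrocarbon receptor. WT libraries held 68.0, 58.8 and 113 normalised counts and KO libraries 164, 130 and 231. The groups did not overlap, but the gap between the highest WT and the lowest KO library was small beside the spread within each. Its log2 change of 1.14 (SE 0.36, interval 0.33 to 1.94) did not pass (limma adjusted p = 0.127). From 56 to 202 reads per WT library lay behind these values.

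Glul (ENSMUSG00000026473, chromosome 1, 153899944 to 153909723, plus strand) encodes glutamine synthetase, which in the lobule is limited to the hepatocytes next to the central vein and is also made by macrophages. Its level was the highest of the 10 genes and moved least. WT libraries held 4714, 4739 and 3768 normalised counts and KO libraries 4997, 4867 and 5856. KO minus WT was 0.25 on the log2 scale (SE 0.19, interval -0.17 to 0.68, limma adjusted p = 0.545). That upper bound lies below the lower bound of Cyp2e1. The difference between these 2 genes was not itself tested.

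Oat (ENSMUSG00000030934, chromosome 7, 132557478 to 132576398, minus strand) encodes ornithine aminotransferase, a mitochondrial enzyme that feeds glutamate to glutamine synthesis. WT libraries held 1392, 1179 and 1080 normalised counts and KO libraries 1420, 1413 and 1650. The groups were close and just failed to overlap. KO minus WT was 0.30 on the log2 scale (SE 0.17, interval -0.09 to 0.69, limma adjusted p = 0.412).

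Slc1a2 (ENSMUSG00000005089, chromosome 2, 102658659 to 102790784, plus strand) encodes the glutamate transporter GLT-1, which takes up glutamate in pericentral hepatocytes and in astrocytes. It was near the limit of detection. WT libraries held 17.5, 25.2 and 11.2 normalised counts and KO libraries 23.8, 32.2 and 11.8, from 14 to 27 reads each. The groups overlapped, and the log2 change was 0.28 (SE 0.63, interval -1.13 to 1.69, limma adjusted p = 0.870). Its next transcript held 25.8, 21.0 and 14.0 in WT and 13.4, 22.6 and 16.9 in KO libraries, and that transcript was not tested.

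The periportal genes had fitted changes of 1.34 to 2.83, and 3 of them rose. Pck1 (ENSMUSG00000027513, chromosome 2, 173153048 to 173159273, plus strand) encodes the cytosolic phosphoenolpyruvate carboxykinase, which commits carbon to gluconeogenesis and is induced by glucagon in fasting. WT libraries held 230, 296 and 406 normalised counts, and KO libraries held 3672, 766 and 3592. KO replicate 2 stood far below the other KO libraries, yet above every WT library. The log2 change was 2.83 (SE 0.54, interval 1.63 to 4.04, limma adjusted p = 0.0351), a 7.13-fold higher level. limma's adjusted p was 0.123 with WT replicate 1 left out, 0.0605 with WT replicate 2 left out and 0.125 with KO replicate 3 left out, so each of these ended the call.

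G6pc (ENSMUSG00000078650, chromosome 11, 101367561 to 101377903, plus strand) encodes the catalytic subunit of glucose-6-phosphatase, the last step of glucose release. WT libraries held 37.1, 59.9 and 115 normalised counts and KO libraries 179, 181 and 471. KO replicate 3 was the high library here, where Pck1 had been as high in replicate 1. Its log2 change of 1.95 (SE 0.50, interval 0.83 to 3.07) did not pass (limma adjusted p = 0.0765).

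Gls2 (ENSMUSG00000044005, chromosome 10, 128194457 to 128210004, plus strand) encodes the liver glutaminase, which frees ammonia from glutamine for the urea cycle at the portal end. WT libraries held 262, 57.8 and 97.1 normalised counts and KO libraries 1044, 634 and 670. Replicate 1 was the highest of both groups. The log2 change was 2.73 (SE 0.48, interval 1.65 to 3.81, limma adjusted p = 0.0267), a 6.65-fold higher level. Leaving out WT replicate 3, KO replicate 2 or KO replicate 3 ended the call, with limma adjusted p of 0.0565, 0.0642 and 0.0982.

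Sds (ENSMUSG00000029597, chromosome 5, 120476526 to 120483932, plus strand) encodes serine dehydratase, which turns serine into pyruvate. WT libraries held 38.1, 37.8 and 72.4 normalised counts and KO libraries 231, 158 and 222. The groups lay well apart. The log2 change was 2.07 (SE 0.36, interval 1.26 to 2.88, limma adjusted p = 0.0265), a 4.20-fold higher level. Leaving out WT replicate 1 or 2, or KO replicate 2 or 3, ended the call, with limma adjusted p of 0.0513 to 0.120. Exons of Plbd2 on the opposite strand cover 29.8% of the Sds transcript, and although the library kit keeps strand, how it was used in counting was not given in the sources used here. Plbd2 itself went from 1233 ± 160 to 1660 ± 311 normalised counts (SD, n = 3 each) and did not pass (log2 change 0.42, limma adjusted p = 0.311).

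Cyp2f2 (ENSMUSG00000052974, chromosome 7, 27119909 to 27133660, plus strand) encodes a P450 that activates naphthalene and is a standard portal mark. WT libraries held 243, 399 and 269 normalised counts and KO libraries 453, 709 and 1314. The groups came close, and KO replicate 3 was far above KO replicate 1. The log2 change was 1.34 (SE 0.37, interval 0.51 to 2.16, limma adjusted p = 0.0917). Without KO replicate 1 it passed (limma adjusted p = 0.0277). Exons of Gm15883 on the opposite strand cover 14.7% of its transcript.

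**Figure D2:**
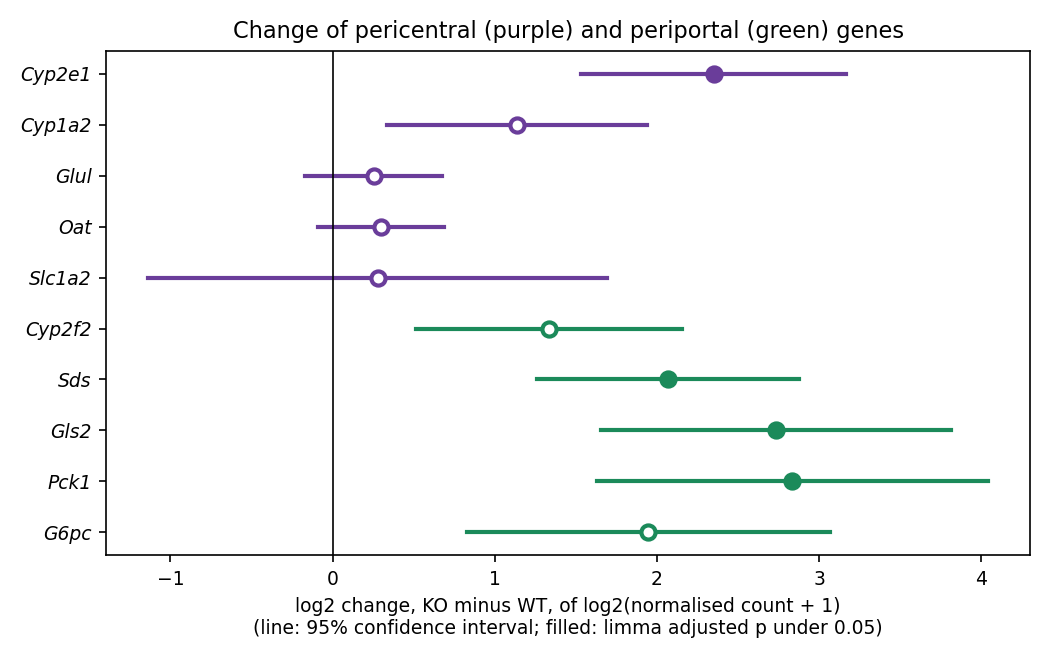
Log2 change (KO minus WT) of each zonation gene with its 95% confidence interval, pericentral genes in purple and periportal genes in green, filled where limma's adjusted p was under 0.05. Glul, Slc1a2 and Oat lie closest to 0, where Slc1a2 has the widest interval of the 10, and the 5 periportal genes lie between 1.34 and 2.83.

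Levels were set against each other per kilobase of the counted transcript. In WT libraries Glul stood at 1578 ± 198 normalised counts per kilobase and Oat at 565 ± 74.1 (SD, n = 3), above all the other genes. Cyp2e1 at 175 ± 66.3, Cyp2f2 at 163 ± 44.8 and Pck1 at 117 ± 33.4 followed and were within their spread of one another. Gls2 at 54.0 ± 42.0, Cyp1a2 at 41.3 ± 15.1, Sds at 41.0 ± 16.5 and G6pc at 29.3 ± 16.6 were lower and also within their spread. Slc1a2 was last at 1.55 ± 0.60. In KO libraries the order changed in the middle. Glul still led at 1877 ± 193 per kilobase (SD, n = 3), but Pck1 at 1006 ± 622 and Cyp2e1 at 885 ± 312 stood above Oat at 694 ± 62.6, which was within their spread. Cyp2f2 at 442 ± 237, Gls2 at 304 ± 88.4, Sds at 169 ± 32.7, G6pc at 115 ± 69.6 and Cyp1a2 at 90.1 ± 26.5 followed, where Cyp2f2 and Gls2, and likewise Sds and G6pc, and G6pc and Cyp1a2, were within their spread. Slc1a2 was again last at 1.95 ± 0.88.

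The zones were next set side by side in each library. The mean log2 level of the 5 pericentral genes was 8.11 to 8.31 in WT and 8.94 to 9.15 in KO libraries. That of the 5 periportal genes was 6.79 to 7.28 and 8.64 to 9.65. Pericentral minus periportal was therefore 1.44, 1.32 and 0.93 in WT libraries and -0.08, 0.31 and -0.50 in KO libraries. The pericentral mean was the higher in every WT library, and the means of the sets lay closer together in KO libraries. These means were not divided by transcript length, and Glul and Oat held the highest levels of the pericentral set. The offset between the sets in a library thus depends on the genes chosen and their lengths. No p is given for this difference, since the genes were chosen with results of these data known.

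The median log2 change was 0.30 for the pericentral and 2.07 for the periportal genes, with 1 of 5 and 3 of 5 called. Glul, Oat and Slc1a2 lay at or below the pericentral median, and the cytochromes Cyp2e1 and Cyp1a2, at 2.35 and 1.14, lay above it. Glul is also made by macrophages, the selected cells, and Slc1a2 rested on 14 to 27 reads per library. Whether hepatocytes of the zones changed differently was not tested. Cyp2e1 over Cyp2f2, the classic pair of the zones, gave per-kilobase ratios of 1.60, 0.461 and 1.51 in WT and 4.21, 1.39 and 1.57 in KO libraries. These overlapped between the groups, with KO replicate 1 the highest and WT replicate 2 the lowest.

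**Figure D3:**
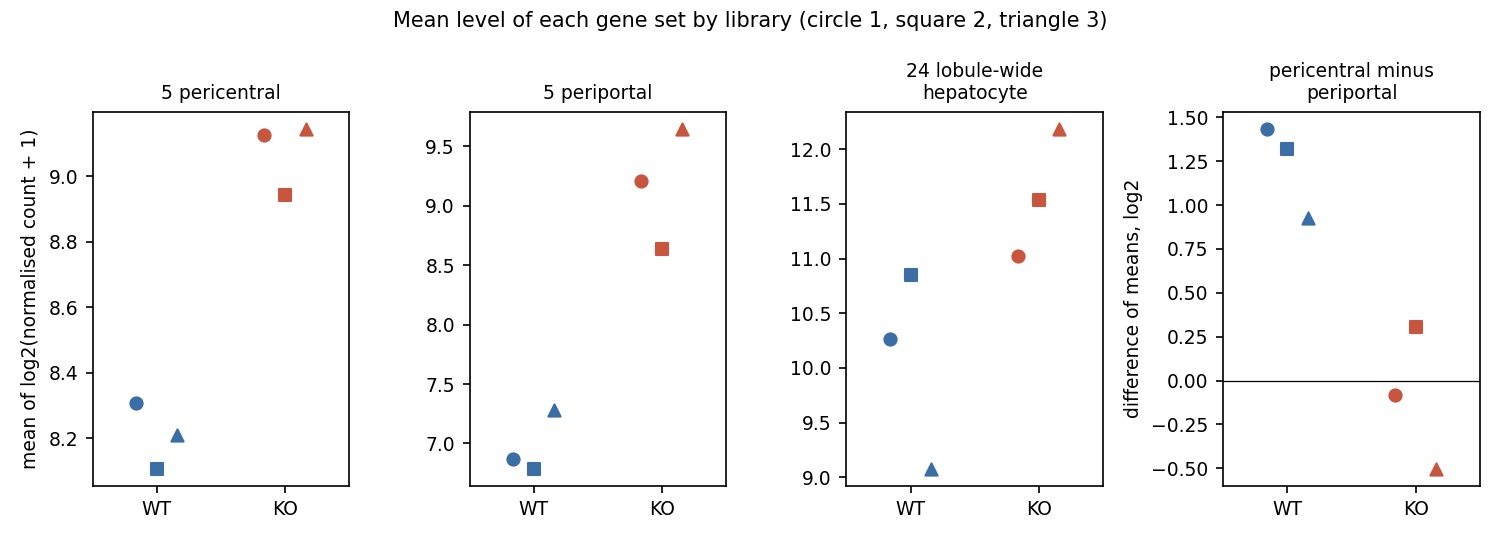
Mean of log2(normalised count + 1) in each library for the 5 pericentral genes, the 5 periportal genes and 24 lobule-wide hepatocyte genes, and the difference between the zones, with WT in blue, KO in red and 1 symbol per replicate. The means of WT and KO libraries do not overlap in either zone or in the lobule-wide genes, where KO replicate 1 at 11.0 is close to WT replicate 2 at 10.8, and the zone difference is 0.93 to 1.44 in WT and -0.50 to 0.31 in KO libraries.

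The lobule-wide hepatocyte genes had a median log2 change of 1.55, with 23 of 24 above 0 and 2 called, against 54.2% and 2.44% of all genes tested. Those were Hnf4a, the master regulator of hepatocyte identity, at 2.79 (limma adjusted p = 0.0205), and Rbp4, the retinol carrier, at 1.74 (limma adjusted p = 0.0252). Ttr and Apoa1, genes of plasma carriers, were at 1.44 and 2.23 and did not pass. Hnf4a lost its call without KO replicate 3, and Rbp4 also without WT replicate 1 or KO replicate 2. The mean log2 level of the 24 was 10.3, 10.8 and 9.08 in WT and 11.0, 11.5 and 12.2 in KO libraries. These means did not overlap, though the sums did, and KO replicate 1 was only just above WT replicate 2.

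Each zonation gene was then set against those 24 genes within its own library, as a log2 level minus the mean log2 level of the 24. Pck1 gained most by this measure, from -1.82 ± 1.22 in WT to -0.50 ± 1.39 in KO libraries (SD, n = 3), and Gls2 went from -3.22 ± 1.52 to -2.01 ± 0.92. Cyp2e1 went from -1.82 ± 1.46 to -0.99 ± 0.76. Sds and G6pc changed by 0.55 and 0.43, and Cyp2f2 and Cyp1a2 by -0.18 and -0.38. Glul fell back, with 1.37 to 2.80 in WT and 0.33 to 1.26 in KO libraries, and Oat went from 0.18 ± 0.82 to -1.04 ± 0.47. Glul and Slc1a2 had every KO library below every WT library on this scale, which is not read as a result about these genes. The mean log2 level of the 24 genes was itself 1.52 higher in KO libraries, so an unchanged gene falls on this scale. Slc1a2 rested on 14 to 27 reads per library. The share of all genes without overlap on this scale was not computed. For the other 8 genes, the 4 called ones among them, WT and KO libraries overlapped.

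**Figure D4:**
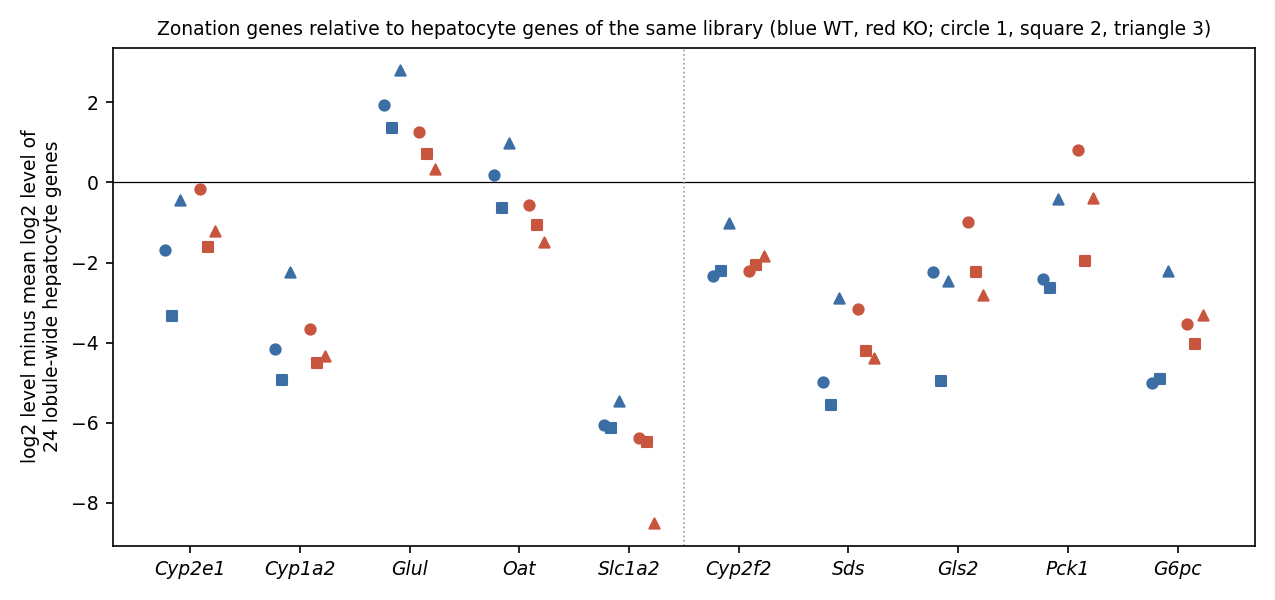
Log2 level of each zonation gene minus the mean log2 level of 24 lobule-wide hepatocyte genes of the same library, with WT in blue, KO in red, 1 symbol per replicate and a dotted line between the zones. KO points lie below WT points for Glul and Slc1a2, and the groups overlap for the other genes. The mean log2 level of the 24 genes was itself 1.52 higher in KO libraries, so an unchanged gene falls on this scale.

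The hepatocyte genes did not share 1 order of libraries. Among WT libraries replicate 2 was the highest for Cyp2f2 but the lowest for Cyp2e1, Cyp1a2 and Gls2. For Sds it was level with replicate 1, at 37.8 and 38.1. Among KO libraries replicate 3 was the highest for Cyp2f2, G6pc, Cyp1a2 and Cyp2e1, and replicate 1 for Gls2. For Sds and Pck1 replicate 1 was only just above replicate 3. Of the lobule-wide genes, Apoa1 held 2087, 5186 and 1371 normalised counts in WT libraries, with replicate 2 on top, as Cyp2f2 did. Hnf4a held 320, 80.9 and 140, with replicate 2 at the bottom, as Gls2 did. Whether the libraries differed in the make-up of their hepatocyte RNA was not tested.

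Further zonation genes were counted from lists written from general knowledge, with earlier results of these data known. Of 35 other pericentral genes 31 were tested (Cyp7a1, Sp5, Slc22a3 and Avpr1a were too low), 24 had a change above 0, against 54.2% of all genes tested, and 2 rose, against 2.09% of all. The median was 0.65, against 0.05 for all. Akr1c6, a steroid reductase, rose from 434 ± 282 to 2426 ± 1229 normalised counts (SD, n = 3 each), with a log2 change of 2.53 (limma adjusted p = 0.0322). Cyp2c50, a P450 of a family with close copies, was at 1.99 (limma adjusted p = 0.0470), and edgeR's quasi-likelihood test did not call it (adjusted p = 0.0593). Rgn, which encodes regucalcin, and Ahr, the aryl hydrocarbon receptor that drives Cyp1a2, were at 1.96 and 0.65 and did not pass. Akr1c6 lost its call when WT replicate 2 or 3, or KO replicate 3, was left out, and Cyp2c50 without any 1 library but WT replicate 1.

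Of 36 other periportal genes 35 were tested (Ppargc1a was too low), 32 had a change above 0, and 17 rose, against 54.2% and 2.09% of all. The median was 1.72. Tat, which degrades tyrosine, rose from 326 ± 107 to 2186 ± 906 normalised counts (SD, n = 3 each). Hgd and Fah, later steps of the same pathway, rose by log2 changes of 2.55 and 2.50, and Agxt, which detoxifies glyoxylate, by 2.72 (limma adjusted p = 0.0144 for Hgd and Fah and 0.0147 for Agxt). Without KO replicate 3 none of the 17 passed; Tat, Hgd, Fah and Agxt passed without any 1 of the other 5 libraries. The lobule-wide hepatocyte genes had a median of 1.55 with 2 of 24 called. The part of hepatocyte RNA in these counts was not tested.

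**Figure D5:**
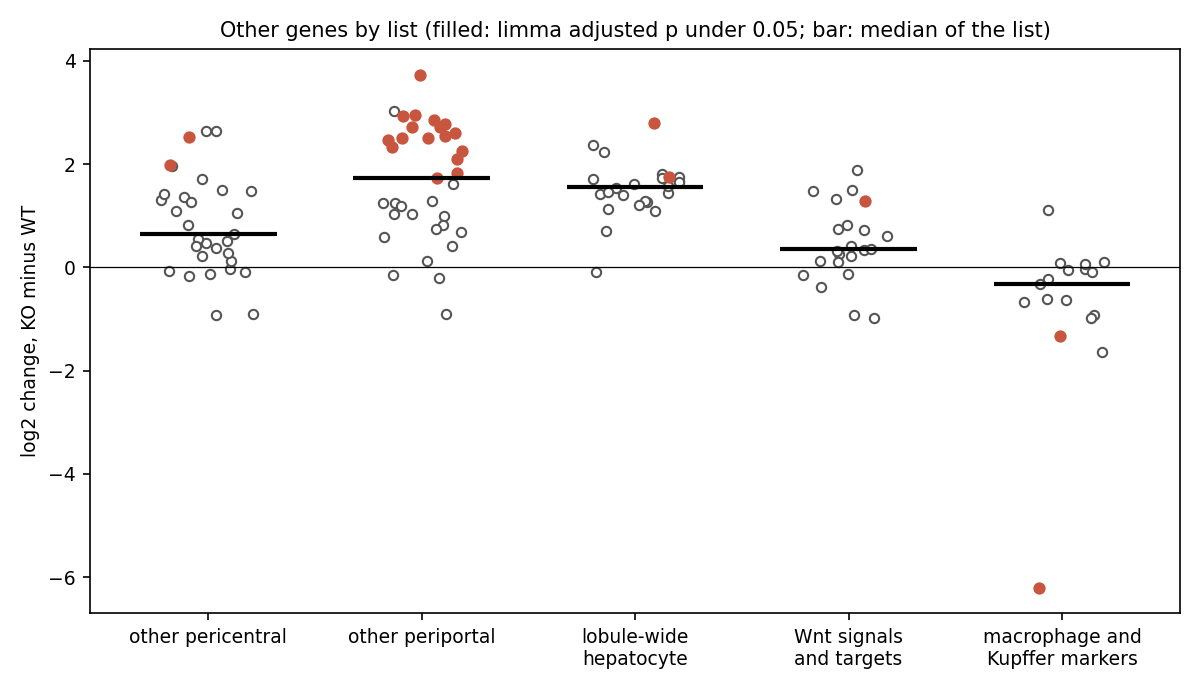
Log2 change (KO minus WT) of each tested gene of 5 lists, zonation genes above left out, filled where limma's adjusted p was under 0.05, with a bar at the list's median. Filled points number 2 of 31 other pericentral, 17 of 35 other periportal and 2 of 24 lobule-wide hepatocyte genes.

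Genes that handle nitrogen and glutamate beside Glul, Oat, Slc1a2 and Gls2 were tested for 23 of 24, of which 20 were above 0 and 5 rose. The shares over all genes tested were 54.2% and 2.09%. The median of the list was 1.04. Of the urea cycle, Cps1, which makes carbamoyl phosphate, rose from 316 ± 128 to 996 ± 234 normalised counts (SD, n = 3 each; limma adjusted p = 0.0373), and Ass1, which joins citrulline to aspartate, from 174 ± 83.3 to 796 ± 283 (limma adjusted p = 0.0267). The mitochondrial alanine aminotransferase gene Gpt2 rose by 1.39 on the log2 scale. Aldh4a1, of proline breakdown, rose by 1.04, but shares 47.2% of its transcript with the exons of Gm21969 on the same strand. All of these lost their calls without KO replicate 3, Cps1 also without WT replicate 1 or KO replicate 2, Ass1 also without KO replicate 2, and Aldh4a1 also without WT replicate 3 or KO replicate 2.

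Genes of gluconeogenesis and its control beside Pck1, G6pc and Sds were tested for 20 of 21, of which 17 were above 0 and 4 rose. The shares over all genes tested were 54.2% and 2.09%. The median of the list was 0.61. Fbp1, the fructose bisphosphatase, rose from 216 ± 123 to 1608 ± 614 normalised counts (SD, n = 3 each; log2 change 2.95, limma adjusted p = 0.0147). Pcx, the pyruvate carboxylase, rose by 2.01 on the log2 scale and Tat by 2.71. In KO libraries Fbp1 held 2165, 950 and 1710 and Pcx 669, 279 and 592, with replicate 2 the lowest as in Pck1. Fbp1 and Tat lost their calls only without KO replicate 3, and Pcx also without WT replicate 1 or 2.

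Wnt signals and their targets of the pericentral zone were tested for 22 of 24 genes, of which 17 were above 0 and 1 rose, with a median of 0.35. Of all genes tested, 54.2% were above 0 and 2.09% rose, so 1 call in 22 is close to that background. Wnt2, a ligand of sinusoidal and central vein endothelium, held 376, 347 and 264 normalised counts in WT and 577, 896 and 987 in KO libraries (log2 change 1.29, limma adjusted p = 0.0378). It kept its call only without KO replicate 1, and lost it without any 1 of the other libraries. Rspo3, the R-spondin of the central vein, was at 1.89, which did not pass (limma adjusted p = 0.0541). Nkd1, a Wnt feedback target, and Tcf7l2, a Wnt transcription factor, were at 0.81 and -0.99 and did not pass either. Sinusoidal and vascular endothelial markers, which mark the cells that make these ligands, were all above 0 in 16 of 16, with 5 called, a median of 1.29 and summed levels of 35847 to 66907 in WT and 73332 to 149418 in KO libraries. The part of endothelial RNA in these ligands was not tested.

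Xenobiotic receptors and partners of the pericentral P450s were tested for 17 of 19 genes, of which 12 were above 0 and 2 rose. Over all genes tested 54.2% were above 0 and 2.09% rose. The median of the list was 0.68, with changes from -2.14 to 3.05. Cyb5a, the cytochrome b5 that passes electrons to P450s, rose from 1494 ± 181 to 2953 ± 394 normalised counts (SD, n = 3 each; limma adjusted p = 0.0301). The other was Hnf4a, already counted among the lobule-wide hepatocyte genes. The call of Cyb5a was lost without WT replicate 2, WT replicate 3, KO replicate 2 or KO replicate 3. Cyb5r3, its reductase, and Cebpa, a factor of hepatocyte and myeloid genes, were at 0.89 and 0.68 and did not pass.

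Markers of further cell types were read beside these genes. Over all genes tested 54.2% were above 0 and 2.44% were called in either direction. Stellate cell and myofibroblast markers had 10 of 13 above 0 and 1 called, Col1a1, and their summed level was 20163 to 28761 in WT and 32240 to 58237 in KO libraries. Cholangiocyte markers had 9 of 9 tested above 0 and 1 called, Spp1, with sums of 3552 to 8444 and 16033 to 31223. Of these sums Spp1 alone held 2374 to 7901 in WT and 13931 to 28598 in KO libraries, and the sums without Spp1 were not computed. Erythroid markers had 7 of 7 above 0 and none called, with sums of 2221 to 33339 and 30738 to 268695. Macrophage and Kupffer cell markers had sums of 168396 to 289966 and 94109 to 110457, and without Lyz2 the sums of the other 16 were 104645 to 196330 and 93522 to 108434, which overlapped. Clec4f, a Kupffer cell lectin, held 3142 to 3274 normalised counts in WT and 4727 to 9342 in KO libraries, which limma did not call (adjusted p = 0.0537). It was the only 1 of the 17 with KO wholly above WT, and 6 had KO wholly below. Over all 15619 genes tested these counts were 2139 and 1444. Marco held 8525 to 39406 in WT and 5467 to 6660 in KO libraries (log2 change -1.63, limma adjusted p = 0.102). None of the markers found was at 0 in all libraries. What part these cells play in the zonation genes was not tested.

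The genes whose level followed each zone most closely over the 6 libraries were found by Pearson's r with the zone's mean standardised log2 level, among 11632 genes. For the pericentral set they were Elovl3, Asgr2, Acy3, Selenbp2 and Sh3d21, with r of 0.991 to 0.998. For the periportal set they were Aspdh, Oaf, L3hypdh, Srd5a1 and Aspg, with r of 0.984 to 0.992. Asgr2, a chain of the hepatocyte asialoglycoprotein receptor, held 62.8, 53.6 and 34.3 normalised counts in WT and 223, 194 and 299 in KO libraries. Aspdh, an aspartate dehydrogenase, held 29.9, 31.5 and 50.5 in WT and 200, 117 and 238 in KO libraries. The 6 points fall in 2 groups that do not overlap for these genes, and r is given as a description.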

How the data were processed

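RNA of F4/80-selected liver cells was sequenced in 6 libraries, WT and KO in equal number. Titles give group and replicate. Per the submitters' processing notes, STAR 2.4.0k, HTSeq 0.5.3, DESeq 1.8.3, bcl2fastq 2.17 and SAMtools were used with GRCm38.p4. Their roles, the annotation release and the counting options were not given in the sources used here. Per the file headers the deposited signal is a normalised count per Ensembl transcript. All values (100%) were whole multiples of the smallest within 0.001, so whole reads were recovered. Of 79382 transcripts 78332 matched GENCODE M21 (GRCm38). For each gene the transcript of highest mean over the libraries was kept.

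limma 3.58.1 with a trended prior was run on log2(value + 1), genotype as the only term, on genes kept by filterByExpr; p-values are two-sided. edgeR 4.0.16 and DESeq2 1.42.0 on the recovered reads, other pseudocounts and filters, TMM factors, summed transcripts, replicate number as a block and each library left out in turn were alternatives. The script was tested on simulated data. Precision is limited by 3 libraries a group. Members and the 12 lists were chosen with earlier results of these data known. Named from each list were the 4 genes of smallest p, and for each zone the 5 of most similar pattern with a mean of at least 50 reads, without predicted genes and pseudogenes, plus Adgre1 and Lyz2. Intervals are at 95%. A result that this rule would name is not reported here.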

Additional observations from a re-analysis of the deposited data

How the results depend on the processing

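Over all genes 381 were called, and the count was 233 with the transcripts of a gene summed, 1409 with DESeq2 (959 higher and 450 lower, against 326 and 55) and 8 to 809 when 1 library was left out. Of the 10 zonation genes 4 were called, and 0 to 5 when 1 library was left out (0 without KO replicate 3); DESeq2 called 6, adding Cyp2f2 and G6pc. The pericentral median was 0.22 to 0.66, the periportal median 1.91 to 2.37, and the pericentral minus periportal difference of medians, -1.77 in the reported fit, was -2.16 to -1.33 without 1 library. Of other pericentral genes 2 were called, against 1 with no low-count filter, TMM factors, summed transcripts or edgeR, 9 with DESeq2 and 0 to 2 without 1 library. Of other periportal genes 17 were called, and 0 to 17 without 1 library. Relative to lobule-wide hepatocyte genes the periportal median was 0.55 and the pericentral -1.22, with ranges of 0.0023 (without WT replicate 2) to 1.35 (without WT replicate 3) and of -1.46 (without KO replicate 1) to -0.55 (without KO replicate 3). Slc1a2 turned to -0.0048 without WT replicate 3 and -0.020 without KO replicate 2. Same-numbered libraries did not deviate together (Pearson r across genes of -0.01, 0.09 and -0.14), so the numbers were not taken as pairs; with the replicate block 539 genes were called, 5 of the zonation genes, with G6pc added, and 5 other pericentral genes. The cause of these changes was not tested. The fits without 1 library also had fewer samples, and the effect of that was not tested either.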
